A study of Mus musculus with 19 samples.

Results

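The 8 genes described here lie at human risk loci for neurodegenerative disease and are expressed in myeloid cells. Lrrk2 is a Parkinson disease gene, and Bin1, Inpp5d, Plcg2, Abi3, Sorl1, Picalm and Cd2ap are Alzheimer disease genes. They were taken from a list of names and not by a rule on their values, but earlier results of these data were known. Each symbol was matched to its mouse Ensembl identifier. All 8 were found in both deposited tables, among 15634 genes in the hippocampus table and 13783 genes in the sorted-cell table. All 8 also passed the filter on low values, which asked that 3 or more libraries reach a value of 1. In the sorted table Lrrk2 passed it through the donor libraries alone, so it had to differ there. Counts of called genes in the donor comparisons are therefore given over the other 7.

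RNA was sequenced from mouse brain after bone marrow transplantation with or without chronic graft-versus-host disease (GVHD), an immune attack of donor T cells on the recipient. All recipients were irradiated with a split dose of 1100 cGy and given 5000000 T-cell-depleted (TCD) marrow cells. GVHD recipients were given 500000 T cells from spleen in addition, and TCD recipients were the controls without GVHD. Whole hippocampus was taken on day 80 (3 GVHD and 3 TCD libraries). On day 70, brain cells were sorted into macrophages from donor marrow in GVHD mice (6 libraries, called GVHD donor below), recipient microglia in GVHD mice (4 libraries, GVHD host) and recipient microglia in TCD mice (3 libraries, TCD host). Strain, genotype, age, the sort markers and which libraries share a mouse are not given in the sources used here. The p-values below therefore measure the spread between libraries, part of which may be technical.

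Microglia are the resident macrophages of the brain, and marrow-derived macrophages can enter the brain after irradiation. Several of the 8 proteins act on the route that takes membrane and cargo from the cell surface through endosomes to lysosomes. Others relay signals from receptors such as TREM2 to membrane lipids, calcium and the actin skeleton.

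Deposited values are normalised counts. Their library totals were 1051505 to 1090631 in donor libraries, against 890565 to 961740 in GVHD host and 947439 to 954056 in TCD host libraries. An estimated 16673582 to 18546915 reads lay behind each hippocampus library and 7901511 to 35844661 behind each sorted library. The summed level of 12 microglia genes was 15344 to 24055 in donor libraries, against 51190 to 61475 in GVHD host and 58561 to 75904 in TCD host libraries. For 12 genes of marrow-derived brain macrophages it was 46631 to 87254 in donor libraries, 4203 to 13263 in GVHD host libraries and 1313 to 2136 in TCD host libraries. Donor libraries thus held microglia transcripts and GVHD host libraries held marrow-type transcripts. Border-associated macrophage genes (8) summed to 1256 to 1651 in donor, 104 to 167 in GVHD host and 113 to 609 in TCD host libraries, with TCD host library 1 the highest of its group and Lyve1 at 0 in 3 GVHD host libraries. Astrocyte genes (6 of 8 in the table) summed to 47.7 to 86.4 in donor, 338 to 448 in GVHD host and 247 to 300 in TCD host libraries. Donor library 1 stood apart with 241 for B cell genes and 898 for neutrophil genes, against 17.4 to 28.0 and 172 to 311 in the other donor libraries. The part of these cell types in the differences below was not tested. Donor libraries 1 and 5 and TCD host library 1 stood apart in base composition: their values climbed by 0.2901 to 0.3551 on the log2 scale per 10% of transcript GC content, against -0.1731 to 0.0201 in the other 10 sorted libraries. The title of TCD host library 1 says TCD while its description says "Syn", a term left unexplained. No other TCD host library has the lower of the 2 API numbers in the titles, whose meaning is not stated.

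The upstream sequences of the 2 genes that were higher in donor macrophages, Lrrk2 and Sorl1, are shown beside that of Inpp5d, the lower gene with the smallest adjusted p against GVHD host microglia. Sorl1 has 2 entries, and the one at the annotated gene start is shown. The sequences come from RefSeq on GRCm38.p6 and end at the base before the gene start. Capitals mark motif matches found on either strand: GGGCGG, the GC box, with 2 matches upstream of Lrrk2; CACGTG, the E-box read by lysosomal and clock regulators, upstream of Sorl1 beside a GC box; and GAGGAAGT, a site of the myeloid factor PU.1, upstream of Inpp5d.
Lrrk2 (chr15:91672974-91673174, plus strand): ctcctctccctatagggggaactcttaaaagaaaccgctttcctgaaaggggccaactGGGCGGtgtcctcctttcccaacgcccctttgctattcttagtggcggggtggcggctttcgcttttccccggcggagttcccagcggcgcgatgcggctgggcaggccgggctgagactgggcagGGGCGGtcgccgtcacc
Sorl1 (chr9:42124298-42124547, minus strand): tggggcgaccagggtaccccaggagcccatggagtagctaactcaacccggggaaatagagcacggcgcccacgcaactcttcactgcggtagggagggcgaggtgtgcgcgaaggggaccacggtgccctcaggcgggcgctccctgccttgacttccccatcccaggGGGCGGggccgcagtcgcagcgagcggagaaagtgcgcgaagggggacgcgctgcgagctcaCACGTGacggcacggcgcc
Inpp5d (chr1:87620062-87620311, plus strand): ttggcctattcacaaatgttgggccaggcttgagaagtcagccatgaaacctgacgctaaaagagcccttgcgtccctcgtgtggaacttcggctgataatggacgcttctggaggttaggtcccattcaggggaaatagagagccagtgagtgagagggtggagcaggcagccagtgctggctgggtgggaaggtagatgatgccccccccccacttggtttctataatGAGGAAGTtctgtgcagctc
Over 32851 promoters cut to 250 bases, GGGCGG was in 32.7%, CACGTG in 6.02% and GAGGAAGT in 2.44%. In the same window Plcg2 held 1 E-box and 2 GC boxes and Picalm held 1 E-box and 6 GC boxes. TGANTCA, the AP-1 site found in 6.75% of promoters, and an interferon response element found in 2.98% had no match in the sequences of these 5 genes. Promoter entries matched 6 of the 8 genes, with none for Bin1 and Abi3. The Cd2ap entry was not searched, since too little of it was left once bases inside the annotated gene were cut. The Lrrk2 sequence was cut in the same way to 201 bases, fewer than the 250 of the background. A match describes the letters and says nothing of binding.

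The genes sit on separate chromosomes of GRCm38, and each identifier is protein-coding in GENCODE release M21. Lrrk2 (ENSMUSG00000036273) spans chr15:91673175-91816120 on the plus strand, Bin1 (ENSMUSG00000024381) chr18:32377230-32435737 on the plus strand and Inpp5d (ENSMUSG00000026288) chr1:87620312-87720507 on the plus strand. Plcg2 (ENSMUSG00000034330) spans chr8:117498291-117635142 on the plus strand, and Abi3 (ENSMUSG00000018381) chr11:95830074-95842476 on the minus strand. Sorl1 (ENSMUSG00000049313) spans chr9:41964720-42124297 on the minus strand, Picalm (ENSMUSG00000039361) chr7:90130213-90213465 on the plus strand and Cd2ap (ENSMUSG00000061665) chr17:42792951-42876665 on the minus strand. Abi3 shares exon sequence with genes on the opposite strand, over 2913 bases with Zfp652, 1708 bases with Phospho1 and 234 bases with Gngt2. The libraries are labelled as stranded, but whether the counting used strand is not stated, so the level of Abi3 may hold reads of these neighbours.

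Per kilobase of transcript, 4 genes led in every sorted group: Inpp5d, Bin1, Abi3 and Plcg2. In donor macrophages Inpp5d averaged 71.7 normalised counts per kb, Bin1 55.3, Abi3 47.2 and Plcg2 38.7, and the ranges of neighbours in this order overlapped. In GVHD host microglia Bin1 (129 per kb) and Inpp5d (120 per kb) overlapped at the top and lay apart from Abi3 (76.6 per kb), and Plcg2 (38.8 per kb) came next. In TCD host microglia the order was Bin1 (167 per kb), Inpp5d (109 per kb), Abi3 and Plcg2 (45.5 per kb). Picalm and Cd2ap followed, with 13.4 and 9.05 per kb in donor macrophages, 17.1 and 16.5 in GVHD host microglia and 19.7 and 13.2 in TCD host microglia. Sorl1 had 7.09 per kb in donor macrophages, 2.09 in GVHD host microglia and 1.68 in TCD host microglia. Lrrk2 was last in each sorted group, with 1.18 per kb in donor macrophages, 0.00971 in GVHD host microglia and 0.0244 in TCD host microglia. By this measure Lrrk2 lay at percentile 21.1 of the genes of the sorted table in donor macrophages, 0.339 in GVHD host microglia and 0.870 in TCD host microglia.

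The comparison of donor macrophages with host microglia of the same transplant group asks how marrow-derived cells in the GVHD brain differ from the resident cells. Lrrk2 and Sorl1 were higher in donor macrophages, and Bin1, Inpp5d, Abi3, Picalm and Cd2ap were lower. Plcg2 was not called. With limma and Benjamini-Hochberg adjustment over 13086 genes, 6 of the 7 genes other than Lrrk2 passed an adjusted p of 0.05, where 38.6% of all tested genes passed. By direction 1 was higher, where 19.4% of tested genes were higher, and 5 were lower, where 19.2% were lower. With values rescaled to equal library totals, which moved the median of all genes to -0.12 on the log2 scale, the same counts of 1 higher and 5 lower were found, where 14.0% of tested genes were higher and 27.6% lower. The median log2 difference of the 7 genes was -0.70, against 0.044 over all tested genes. Donor and host values were fully separated for 5 of the 7, where 27.9% of all tested genes were.

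**Figure D1:**
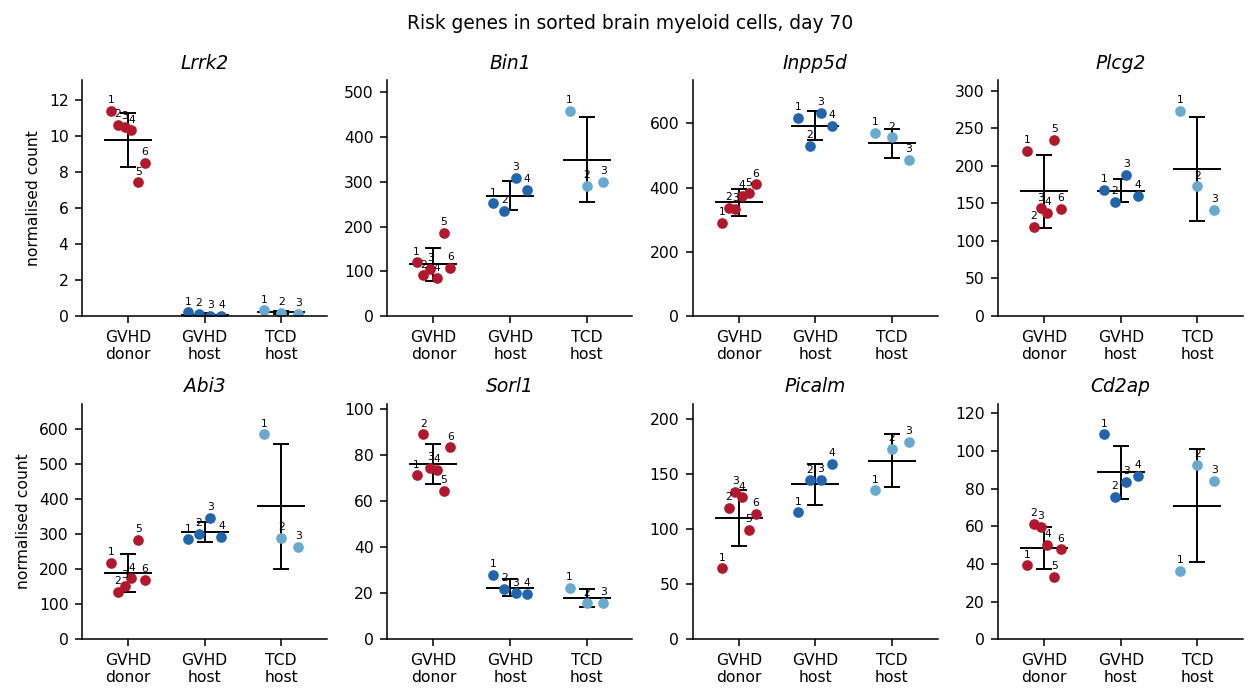
Normalised count of each risk gene in every sorted library (vertical axes, linear, from 0), with GVHD donor macrophages, GVHD host microglia and TCD host microglia from left to right. Numbered points are libraries, horizontal lines are group means and bars are 1 SD. Lrrk2 and Sorl1 stand above both host groups, and TCD host library 1 stands apart from the other TCD host libraries for Bin1, Plcg2, Abi3 and Cd2ap.

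Lrrk2 encodes a large kinase with a GTPase domain that phosphorylates Rab GTPases on lysosomes and other membranes. Donor macrophages had 7.41 to 11.4 normalised counts with a median of 10.4, against 0.195, 0.126, 0 and 0 in the 4 GVHD host libraries. In estimated reads this was 967 over the 6 donor libraries and 7 over the 4 GVHD host libraries. The lowest donor library lay far above the highest host library. The log2 difference was 3.33 ± 0.13 (SE) on the log2(value + 1) scale, which understates the change of a gene so near 0. It was 4.17 with a pseudocount of 0.5 and 1.76 with a pseudocount of 4. The ratio of estimated reads per library read was 76.6, with an exact 95% interval of 37.0 to 191 that covers counting error only. The differences within the lower API number (1 library a group) and the higher were 3.37 and 3.32.

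Sorl1 encodes a sorting receptor that works with the retromer to return the amyloid precursor protein and other cargo from endosomes. Its values in donor macrophages were 64.5 to 88.9 with a median of 74.0, against 27.9, 22.0, 19.9 and 19.7 in GVHD host microglia. The groups did not overlap. The log2 difference was 1.74 ± 0.12 (SE, limma adjusted p = 2.46e-07), and it was 1.32 within the lower API number and 1.85 within the higher. Unlike Lrrk2, Sorl1 was present in every host library.

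Inpp5d encodes SHIP1, a phosphatase of immune cells that removes phosphate from the lipid messenger of phosphoinositide kinase signalling. It had 290 to 410 normalised counts in donor macrophages with a median of 354, against 616, 529, 633 and 593 in GVHD host microglia. Every donor library was below every host library. The log2 difference was -0.75 ± 0.10 (SE, limma adjusted p = 9.45e-05), with -1.08 within the lower API number and -0.67 within the higher.

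Plcg2 encodes a phospholipase that cleaves a membrane phosphoinositide into calcium-mobilising and lipid messengers below TREM2 and Fc receptors. Its donor values ran from 119 to 235 with a median of 143, and its GVHD host values were 168, 152, 188 and 160. The donor range enclosed all 4 host values, with donor libraries 1 and 5 above and the other 4 donor libraries below them. The log2 difference was -0.011 ± 0.18 (SE, limma adjusted p = 0.969), and its 95% interval ran from -0.40 to 0.38. The differences within the lower and the higher API number were 0.39 and -0.13.

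Abi3 encodes a partner of the WAVE complex, which drives branching of actin filaments. Donor macrophages had 136 to 284 normalised counts with a median of 172, against 286, 302, 348 and 292 in GVHD host microglia. The groups did not overlap, but donor library 5 came close to the lowest host library. The log2 difference was -0.70 ± 0.21 (SE, limma adjusted p = 0.0189), with -0.38 within the lower API number and -0.82 within the higher. The call was lost without GVHD host library 2 (adjusted p = 0.0525) and without GVHD host library 3 (adjusted p = 0.0694). With the number in the description field as a block over all 13 libraries the difference was -0.60 with a limma adjusted p of 0.0878. With that block over donor and GVHD host libraries alone it was -0.61 with a limma adjusted p of 0.0138. Whether this number marks pairs of libraries is not settled.

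Bin1, Picalm and Cd2ap encode proteins of endocytosis: a membrane-bending amphiphysin, a clathrin assembly adaptor, and a scaffold that ties receptors to actin. Bin1 had 83.9 to 186 normalised counts in donor macrophages with a median of 107, against 252, 234, 308 and 282 in GVHD host microglia. All donor libraries were lower, and donor library 5 was the highest of them. The log2 difference of Bin1 was -1.24 ± 0.20 (SE, limma adjusted p = 3.22e-04), with -1.06 within the lower API number and -1.30 within the higher.

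Picalm values were 64.3 to 134 in donor macrophages with a median of 117, against 115, 144, 144 and 159 in GVHD host microglia. The groups overlapped through host library 1 and the upper donor libraries. The log2 difference was -0.43 ± 0.11 (SE, limma adjusted p = 0.00821), with -0.83 within the lower API number and -0.33 within the higher. Without the API number in the model it was -0.38 with an adjusted p of 0.139. Cd2ap had 33.1 to 61.5 normalised counts in donor macrophages with a median of 48.9, against 109, 75.8, 83.5 and 86.9 in GVHD host microglia. All donor libraries lay below all host libraries, and the log2 difference was -0.91 ± 0.23 (SE, limma adjusted p = 0.00799). It was -1.45 within the lower API number and -0.72 within the higher.

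**Figure D2:**
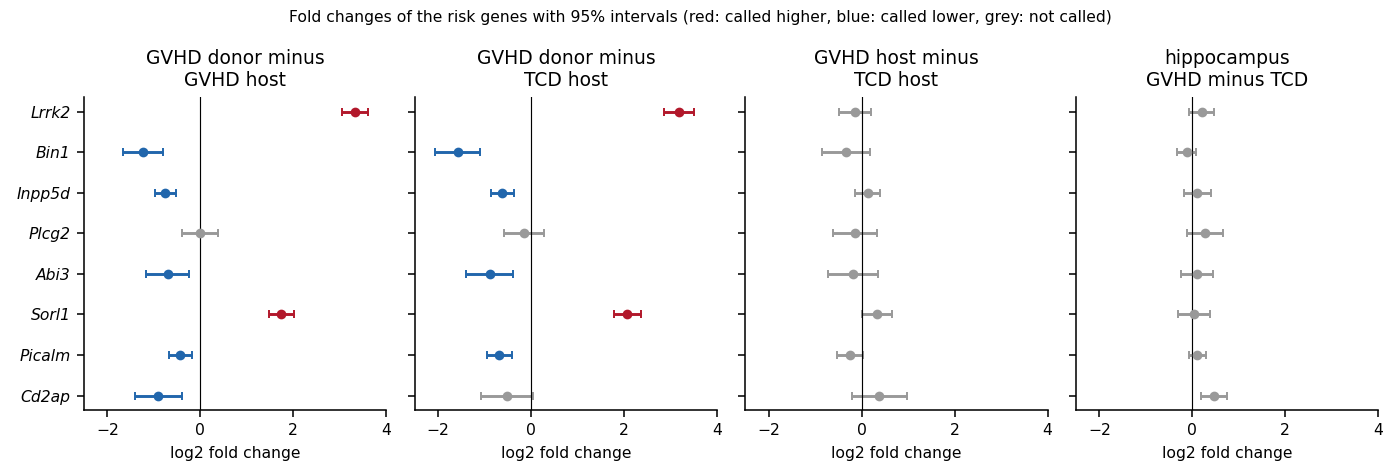
Log2 fold change of each risk gene on the log2(value + 1) scale in the 4 comparisons, with 95% intervals from limma; red is called higher, blue called lower and grey not called. Lrrk2 and Sorl1 lie to the right of 0 in both donor comparisons, and no gene is called between GVHD and TCD host microglia or between GVHD and TCD hippocampus. Lrrk2 passed the filter on low values through donor libraries alone, so it had to differ in the donor comparisons.

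Set against TCD host microglia, the same 6 donor libraries gave 5 called genes of the 7 other than Lrrk2, where 37.0% of all tested genes were called. With values rescaled to equal library totals, which moved the median of all genes to -0.15, it was also 5. The 2 comparisons share their donor libraries and are no independent evidence of each other. Lrrk2 and Sorl1 were again higher, and Bin1, Inpp5d, Abi3 and Picalm were lower. Lrrk2 values were 0.303, 0.181 and 0.121 in TCD host microglia, or 11 estimated reads in all, and the donor libraries lay above by 3.19 ± 0.15 on the log2 scale (SE). The ratio of estimated reads per library read was 36.1, with an exact 95% counting interval of 20.1 to 72.6. Sorl1 had 22.4, 15.6 and 15.8 normalised counts in TCD host microglia, all under the lowest donor value, and its log2 difference was 2.07 ± 0.14 (SE, limma adjusted p = 1.44e-07).

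The other called genes were the signalling phosphatase and 3 genes of membrane and actin dynamics. Bin1 was 458, 291 and 300 in TCD host microglia and differed by -1.58 ± 0.22 (SE, limma adjusted p = 1.12e-04). Inpp5d was 571, 557 and 487 there and differed by -0.62 ± 0.12 (SE, limma adjusted p = 0.00105). Picalm was 135, 172 and 179 there and differed by -0.68 ± 0.12 (SE, limma adjusted p = 8.10e-04). For these 3 genes every donor library was below every TCD host library, but the share of all tested genes so separated is not given for this comparison. Within the lower and the higher API number the differences were 3.25 and 3.17 for Lrrk2, 1.62 and 2.21 for Sorl1, -1.92 and -1.42 for Bin1, -0.97 and -0.51 for Inpp5d, and -1.06 and -0.57 for Picalm.

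Calls of Abi3 and Cd2ap against TCD host microglia changed when single libraries were left out and with the higher API number alone. That of Cd2ap changed also with a correction for GC content. Abi3 was 586, 291 and 265 in TCD host microglia, where the first library stood far above the others, and the donor range reached into the host range. The difference was -0.89 ± 0.23 (SE, limma adjusted p = 0.00940), but without TCD host library 1 it was -0.61 with an adjusted p of 0.0580. Cd2ap was 36.5, 92.6 and 84.0 in TCD host microglia, the first of these inside the donor range and the others above it. The difference was -0.52 ± 0.26 (SE, limma adjusted p = 0.137). Without TCD host library 1 it was -0.89 with an adjusted p of 0.00982, and without GVHD host library 1, which enters the shared model, it was -0.59 with an adjusted p of 0.0439. With every library kept and values corrected for GC content it was -0.52 ± 0.18 (SE) with a limma adjusted p of 0.0364. Within the lower and the higher API number the differences were -1.41 and -0.65 for Abi3 and 0.10 and -0.83 for Cd2ap. In a model of the higher API number alone, Abi3 lost its call and Cd2ap gained one. Plcg2 was 273, 173 and 141 in TCD host microglia and differed by -0.15 ± 0.20 (SE, limma adjusted p = 0.606), with a 95% interval of -0.59 to 0.28. Its differences within the API numbers were -0.31 and -0.049.

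Host microglia of GVHD and TCD mice were compared to ask whether resident microglia change with the disease. By limma 0 of the 8 genes was called at an adjusted p of 0.05, where 0.107% of all tested genes (14 of 13086) were called. Before adjustment Sorl1 alone of the 8 was under 0.05 by limma, as were 6.85% of all tested genes. Sorl1 was 27.9, 22.0, 19.9 and 19.7 in GVHD host microglia and 22.4, 15.6 and 15.8 in TCD host microglia, and TCD host library 1 lay within the GVHD range. It was higher in GVHD host microglia by 0.33 ± 0.15 on the log2 scale (SE, limma adjusted p = 0.715), with 0.30 within the lower API number and 0.37 within the higher. All 8 genes overlapped between the groups, and the share of all tested genes that did is not given for this comparison.

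The other differences between GVHD and TCD host microglia ran from -0.34 ± 0.24 for Bin1 to 0.38 ± 0.28 for Cd2ap on the log2 scale (SE). The 95% intervals were -0.85 to 0.18 for Bin1, -0.13 to 0.40 for Inpp5d, -0.61 to 0.32 for Plcg2, -0.73 to 0.36 for Abi3, -0.53 to 0.036 for Picalm and -0.22 to 0.98 for Cd2ap. Lrrk2 rested on 7 estimated reads in GVHD host microglia and 11 in TCD host microglia, a ratio of 0.471 per library read with an exact 95% counting interval of 0.155 to 1.33. That interval includes 1, and a difference within it was not detectable at this depth. Within the lower and the higher API number the differences of Bin1 were -0.86 and -0.11, those of Plcg2 -0.70 and 0.085, those of Abi3 -1.03 and 0.17, and those of Cd2ap 1.55 and -0.11. For Plcg2, Abi3 and Cd2ap the sign thus differed between the API numbers, with 1 library a group for the lower number. Inpp5d differed by 0.11 and 0.16, Picalm by -0.23 and -0.23, and Lrrk2 by -0.12 and -0.15.

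**Figure D3:**
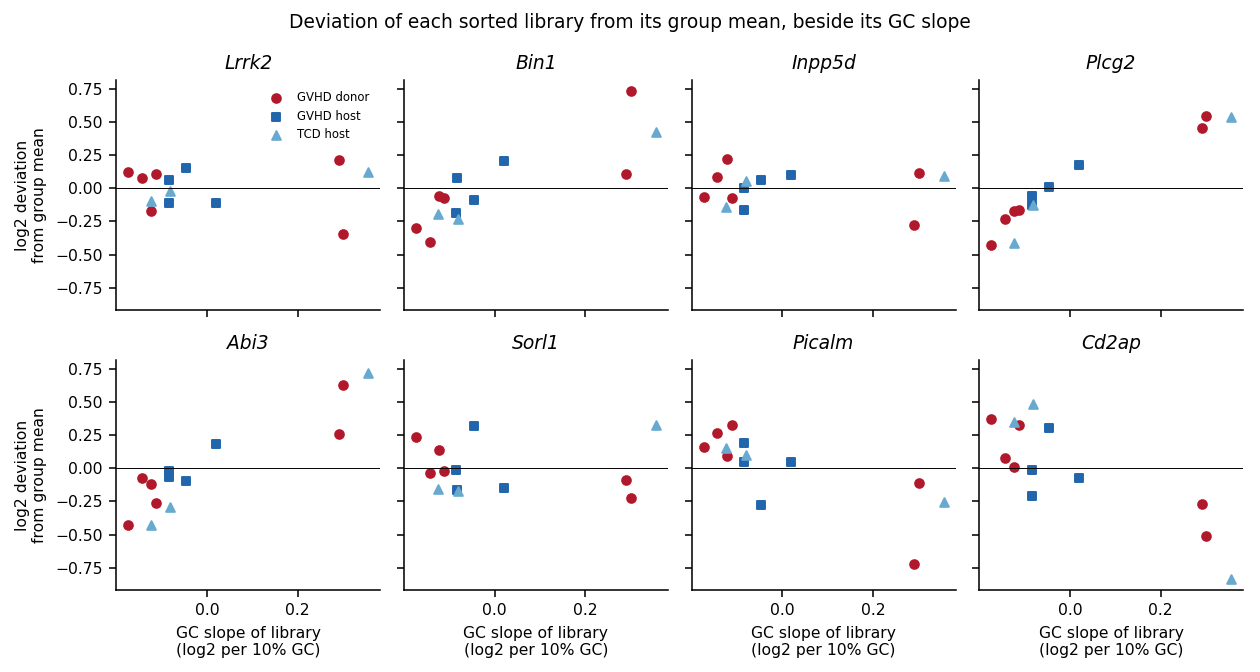
Log2 deviation of each sorted library from its group mean (vertical axes) against the library's slope of log2 value on transcript GC content (horizontal axes, log2 per 10% GC), for each risk gene; circles are GVHD donor macrophages, squares GVHD host microglia and triangles TCD host microglia. The 3 libraries to the right of 0.25 lie above their group means for Bin1, Plcg2 and Abi3 and below them for Picalm and Cd2ap.

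For 5 of the 8 genes the spread within groups moved with the base composition of the libraries, and the part of that composition in the differences was not tested beyond the alternatives named here. The longest transcripts of Abi3, Bin1, Plcg2 and Inpp5d had GC contents of 59.7%, 55.3%, 54.5% and 53.6%, against 50.7% for Sorl1, 45.5% for Lrrk2, 42.1% for Picalm and 38.4% for Cd2ap. In donor libraries 1 and 5 and TCD host library 1, which had the steepest GC slopes, Plcg2 deviated from its group mean by 0.45, 0.54 and 0.54 on the log2 scale and Abi3 by 0.25, 0.63 and 0.72. Cd2ap deviated by -0.27, -0.51 and -0.83 in these libraries, and Picalm by -0.72, -0.11 and -0.25. Bin1 deviated by 0.10, 0.73 and 0.42. The other 3 genes did not move one way: Inpp5d deviated by -0.28, 0.12 and 0.089, Sorl1 by -0.086, -0.22 and 0.32, and Lrrk2 by 0.21, -0.35 and 0.12. The 2 highest donor values of Bin1, Plcg2 and Abi3 came from donor libraries 5 and 1, and these also held the 2 lowest donor values of Picalm and Cd2ap. Without these 3 libraries 6 of the 7 genes other than Lrrk2 were called in each donor comparison, 1 higher and 5 lower. Cd2ap against TCD host microglia was among them, at -0.69 (limma adjusted p = 0.00106). Of all tested genes 21.4% were then higher and 21.0% lower against GVHD host, and 21.4% and 20.8% against TCD host microglia. Between the host groups 0 of the 7 were called. With the GC correction the counts of the 7 genes were the same. There 20.2% of all tested genes were higher and 19.3% lower against GVHD host, and 18.8% and 18.9% against TCD host microglia. Both alternatives were chosen after the values were seen.

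Whole hippocampus holds neurons, glia and vessels beside microglia, so a risk gene's level there sums over cell types, and fewer cells of a type cannot be told apart from less RNA per cell. Comparing GVHD with TCD hippocampus, limma called 0 of the 8 genes, where 0.479% of all tested genes (69 of 14404) were called and 17.0% had an unadjusted p under 0.05. The median log2 difference of the 8 genes was 0.11, against 0.0048 over all tested genes. Cd2ap was the 1 gene without overlap between the groups, where 24.0% of all tested genes had none. It had 29.4, 30.7 and 32.0 normalised counts in GVHD hippocampus, against 18.8, 21.9 and 25.9 in TCD hippocampus. Every GVHD library was higher, by 0.46 ± 0.12 on the log2 scale (SE), with a limma p of 0.00414 that did not pass adjustment over all genes (adjusted p = 0.115). Base composition also separated these groups, with GC slopes of -0.1167 to -0.0156 in GVHD and 0.0129 to 0.0940 in TCD hippocampus on the log2 scale per 10% GC, and Cd2ap has the lowest GC content of the 8 genes. With the GC correction its difference was 0.33 ± 0.10 (SE, limma adjusted p = 0.194).

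The other 7 genes overlapped between GVHD and TCD hippocampus. Lrrk2 was 35.5, 35.5 and 33.4 in GVHD hippocampus and 28.0, 26.9 and 36.6 in TCD hippocampus, a log2 difference of 0.20 ± 0.12 (SE, limma adjusted p = 0.443) with TCD library 3 above all GVHD libraries. Bin1 was 145, 157 and 152 in GVHD hippocampus and 181, 170 and 146 in TCD hippocampus (log2 difference -0.12 ± 0.089, limma adjusted p = 0.518). Sorl1 was 371, 386 and 444 in GVHD hippocampus and 507, 332 and 350 in TCD hippocampus, where library 1 stood above every GVHD library. The log2 differences of Sorl1 and Picalm were 0.036 ± 0.15 and 0.11 ± 0.084 (SE), with limma adjusted p of 0.930 and 0.545. Picalm was 114, 118 and 136 in GVHD hippocampus and 111, 110 and 118 in TCD hippocampus. Inpp5d, Plcg2 and Abi3 were low in both groups: Inpp5d was 11.9, 14.7 and 14.0 in GVHD and 14.0, 12.2 and 11.3 in TCD hippocampus. Plcg2 was 5.56, 6.53 and 5.92 in GVHD and 4.89, 6.06 and 3.67 in TCD hippocampus. Abi3 was 7.90, 8.32 and 8.16 in GVHD and 7.31, 6.18 and 9.28 in TCD hippocampus. The log2 differences of these 3 genes were 0.11 ± 0.13, 0.27 ± 0.17 and 0.10 ± 0.15 (SE), with limma adjusted p of 0.714, 0.467 and 0.774.

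**Figure D4:**
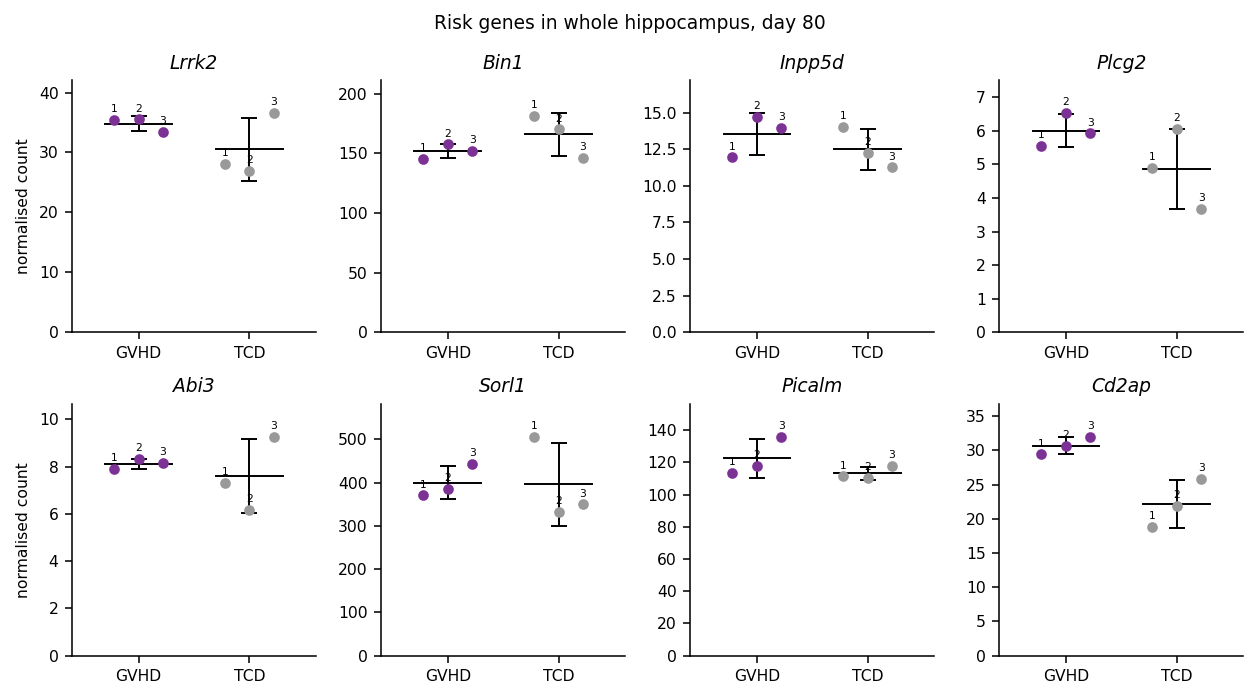
Normalised count of each risk gene in every hippocampus library (vertical axes, linear, from 0), GVHD left and TCD right. Numbered points are libraries, lines are means and bars are 1 SD; Cd2ap is the gene whose GVHD libraries all lie above the TCD libraries.

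Marker lists of other cell types moved between these hippocampus libraries. The summed level of 8 choroid plexus genes was 1057 to 3705 in GVHD hippocampus, against 29.7 to 108 in TCD hippocampus. For 8 oligodendrocyte genes it was 4852 to 6663 in GVHD and 3502 to 5247 in TCD hippocampus. Neuron genes (8) summed to 9531 to 9756 in GVHD and 10507 to 12359 in TCD hippocampus. Genes of marrow-derived brain macrophages (11 of 12 in the table) summed to 142 to 619 in GVHD and 53.3 to 142 in TCD hippocampus, while microglia genes (12) summed to 313 to 399 and 345 to 425 in these groups. The part of these cell types in the value of Cd2ap was not tested.

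Hippocampus and sorted cells were normalised in separate tables, so their levels can only be set side by side. Microglia markers summed in TCD hippocampus to 0.564% of their level in TCD host microglia. Inpp5d, Plcg2 and Abi3 stood nearest to this share, at 2.32%, 2.49% and 1.99%. Cd2ap stood at 31.2%, Bin1 at 47.4% and Picalm at 69.8%. For Sorl1 and Lrrk2 the hippocampus values were the larger, with 396 ± 96.1 against 18.0 ± 3.86 normalised counts in TCD hippocampus against TCD host microglia for Sorl1 and 30.5 ± 5.29 against 0.202 ± 0.0927 for Lrrk2 (SD, n = 3 each). Per kilobase, Bin1 (79.3), Sorl1 (37.0) and Picalm (13.8) led in TCD hippocampus and lay apart from each other, with the same order in GVHD hippocampus (72.5, 37.4 and 14.9).

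Pathway lists drawn around the 8 genes were counted in the same models, where 38.6% of all genes were called for donor macrophages against GVHD host microglia. Any list genes that passed the filter on low values through donor libraries alone, as Lrrk2 did, were not set aside. The split by direction depended on scaling, so each split is also given with values rescaled to equal library totals. The list of the LRRK2 kinase and its Rab substrates had 5 genes higher and 2 lower of 20 tested (2 and 3 when rescaled), with a median log2 difference of 0.23. Rilpl2, an effector of phosphorylated Rab proteins, was higher by 1.35 ± 0.14 (SE, limma adjusted p = 5.74e-06), and its relative Rilpl1, named here because it also has one of the profiles nearest to Bin1, was lower (log2 difference -1.20 ± 0.27 SE, limma adjusted p = 0.00307). Rab35 was lower, at 9.98 ± 2.49 in donor and 20.6 ± 0.773 in GVHD host libraries (SD, n = 6 and 4; log2 difference -1.06). Rab43 and Rab8b were higher, with log2 differences of 0.73 and 0.38. The other 13 genes of the list were not called.

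Signalling genes around Inpp5d and Plcg2 split, with 8 higher and 9 lower of 35 tested (4 and 13 when rescaled) and a median of 0.035. Plcg1, the close relative of Plcg2, was lower in donor macrophages, at 8.38 ± 2.41 against 29.1 ± 1.81 in GVHD host microglia (SD, n = 6 and 4). Its log2 difference was -1.70 ± 0.17 (SE, limma adjusted p = 6.14e-06). Itpr2, a calcium channel opened by the product of phospholipase C, had a log2 difference of -1.36, and Pik3r1, a regulatory subunit of phosphoinositide kinase, had a log2 difference of -1.06. Vav3, a signalling adaptor below immune receptors, was higher, at 6.57 ± 3.64 against 0.111 ± 0.155 (SD, donor against GVHD host). Its GVHD host values thus lay near 0.

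**Figure D5:**
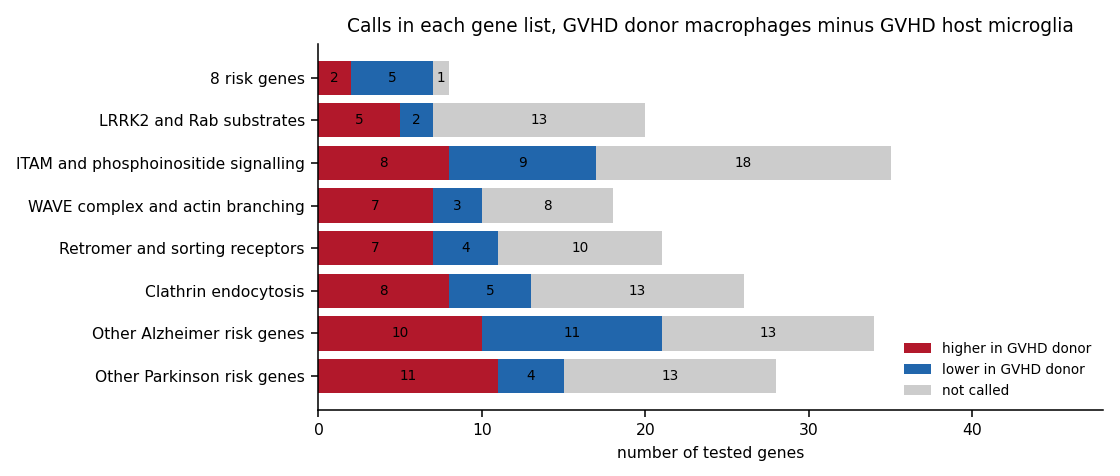
Number of tested genes in each list (horizontal axis) called higher (red), called lower (blue) or not called (grey) in GVHD donor macrophages against GVHD host microglia, at a limma adjusted p under 0.05. The 8 risk genes have 2 higher (Lrrk2 included) and 5 lower, and each of the other lists has called genes in both directions.

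Actin genes around Abi3 had 7 higher and 3 lower of 18 tested (4 and 3 when rescaled), with a median of 0.15. The 2 CYFIP subunits of the WAVE complex moved in opposite directions: Cyfip2 was 40.7 ± 11.5 in donor and 2.59 ± 1.10 in GVHD host libraries, and Cyfip1 was 1001 ± 95.7 in donor and 1606 ± 237 in GVHD host libraries (SD, n = 6 and 4). Their log2 differences were 3.60 ± 0.25 and -0.70 ± 0.090 (SE, limma adjusted p = 2.10e-07 and 4.80e-05). Actr3 and Arpc3, subunits of the ARP complex that nucleates branches, were higher by 1.21 and 0.56 on the log2 scale.

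Retromer and sorting genes around Sorl1 had 7 higher and 4 lower of 21 tested (6 and 7 when rescaled), with a median of 0.21. Sort1, which encodes sortilin, a receptor of the same Vps10-domain family as Sorl1, was lower, at 12.5 ± 3.05 in donor and 79.4 ± 4.02 in GVHD host libraries (SD, n = 6 and 4). Its log2 difference was -2.61 ± 0.16 (SE, limma adjusted p = 8.92e-08), opposite to that of Sorl1. Adam10, a protease that cuts the amyloid precursor protein, had a log2 difference of -0.90. Snx3 and Aplp2 were higher, by 0.81 and 0.64.

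Clathrin endocytosis genes around Picalm, Bin1 and Cd2ap had 8 higher and 5 lower of 26 tested (6 and 7 when rescaled), with a median of 0.31. Itsn1, a scaffold of endocytic pits, was 47.7 ± 26.4 in donor and 2.78 ± 1.20 in GVHD host libraries (SD, n = 6 and 4), and its log2 difference was 3.67 ± 0.25 (SE, limma adjusted p = 1.49e-07). Hip1, which links clathrin to actin, Eps15, an adaptor, and Synj1, a lipid phosphatase that uncoats vesicles, were higher by 2.89, 1.01 and 1.04.

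Among other Alzheimer risk genes 10 were higher and 11 lower of 34 tested (8 and 12 when rescaled), with a median of 0.061, and among other Parkinson risk genes 11 were higher and 4 lower of 28 tested (7 and 5 when rescaled), with a median of 0.30. Apoe, the lipid carrier, averaged 69531 ± 12591 in donor and 3851 ± 1265 in GVHD host libraries (SD, n = 6 and 4), a log2 difference of 4.24 ± 0.22 (SE, limma adjusted p = 2.27e-08). Siglech, counted among the lower genes of the Alzheimer list, is itself on the microglia marker list and had a log2 difference of -3.08. Its place as a risk gene was not checked. Aph1b, a subunit of gamma-secretase, and Scimp, an adaptor of immune signalling, were higher by 2.35 and 2.52. From the Parkinson list Gpnmb, a transmembrane glycoprotein of lysosome-rich macrophages, Bst1, Galc and Ctsb, the last 2 of them lysosomal enzymes, were higher by 3.53, 2.96, 1.69 and 1.00.

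Against TCD host microglia 18.4% of all tested genes were higher and 18.6% lower. The same 7 lists, with the same numbers tested, had 3 higher and 2 lower (LRRK2 and Rab), 5 and 8 (signalling), 5 and 3 (actin), 6 and 3 (retromer and sorting), 4 and 3 (clathrin), 10 and 10 (other Alzheimer) and 10 and 4 (other Parkinson). Rescaled to equal library totals, these splits were 2 and 3, 3 and 11, 3 and 4, 4 and 7, 4 and 7, 8 and 13, and 8 and 5, where 14.4% of all tested genes were higher and 25.9% lower. Between GVHD and TCD host microglia no gene of any of the 7 lists was called, where 0.107% of all tested genes were. In hippocampus 1 was, where 0.479% of all tested genes were called. This was Ace, a risk gene for Alzheimer disease that is also made in choroid plexus. It had 60.0 ± 22.8 normalised counts in GVHD and 14.3 ± 3.19 in TCD hippocampus (SD, n = 3 each). Its log2 difference was 1.93 ± 0.29 (SE, limma adjusted p = 0.0394). The part of choroid plexus in this difference was not tested. With values rescaled to equal library totals, 1 gene of the Alzheimer list and 1 of the Parkinson list were called in hippocampus, both higher. Without the variance trend no gene was called in hippocampus.

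The genes with the most similar profiles over the 13 sorted libraries were found by the root-mean-square distance between centred log2 values. Those nearest to Lrrk2 were 1700071M16Rik, Spic and Ms4a6c, at distances of 0.23 to 0.24 where the profile of Lrrk2 itself had a root-mean-square size of 1.63. Sorl1 had Foxn2, Bst2 and Hacd4 nearest, at 0.15 to 0.18 against its own size of 0.95. For Bin1 these were Prkab1, Slc44a2 and Rilpl1 (0.16 to 0.18 against 0.77), and for Abi3 Ptp4a3, Mfng and Gpaa1 (0.12 to 0.13 against 0.54). For Cd2ap they were Zfp945, Etnk1 and Zfp729a (0.16 to 0.17 against 0.53). The flatter profiles of Inpp5d (size 0.37), Picalm (0.37) and Plcg2 (0.33) were nearest to Gbf1, Snx13 and Hacd3, to Ipo11, 0610010K14Rik and Dusp3, and to Shmt2, Edc3 and Cdip1.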

How the data were processed

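Total RNA of 6 hippocampus and 13 sorted-cell libraries was sequenced as stranded RNA, per the labels. What the authors deposited is a signal, the normalised count of each gene in each library. The submitters' processing notes name GRCm38 as the build and cutadapt 1.9, STAR 2.5.2a and RSEM 1.2.30 as tools, with no roles. The annotation and the scaling method are not given in the sources used here. In each library 68.4% to 81.9% of low values were whole multiples of the smallest step (tolerance 0.02), taken as 1 read, so reads per gene are estimates and no count test was run. Hippocampus and sorted tables were normalised and tested separately.

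Identifiers were matched to GENCODE M21, where 192 hippocampus and 213 sorted identifiers had no match. Genes reaching a value of 1 in 3 or more libraries entered limma (version 3.58.1, R 4.3.3) as log2(value + 1). The variance followed a trend on the mean level, tests were two-sided, and p-values were adjusted by Benjamini and Hochberg's method across the tested genes. The hippocampus model held the group, and a single model over 13 sorted libraries held the group and the API number. Levels per kb use the longest principal transcript. The scripts were tested on simulated data.

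Numbers in the description field match donor with GVHD host libraries in 4 pairs. Their deviations from group means correlated at 0.394, 0.362, 0.166 and 0.280 over 13086 genes. For donor and TCD host libraries matched by title number these were 0.585, 0.308 and 0.415, although both numberings cannot hold for every library. With the API number also removed, as in the main model, those by description were -0.410, 0.169, 0.414 and 0.116. Those by title were -0.389, -0.0047 and 0.189. The first value of each set is from the lower API number, with 1 library a group. Once the API number is removed, the deviations of these libraries cancel out for every gene, which by itself pushes that value down. Which libraries are paired is therefore not settled. The 8 genes, the lists and the alternatives were chosen with earlier results of these data known. Named genes were the 8, the 4 members of each list with the smallest p, and the 3 nearest profiles of each gene.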

Additional observations from a re-analysis of the deposited data

Results flagged for a closer look

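Bin1 in donor library 5 had a normalised count of 186 (186.239), and the other 5 donor libraries lay between 83.9 and 120. The gap to the next library was 0.647 of the range of the group, above the critical value of 0.625 for 6 libraries. Among 16 groups of values tested in this way 1 stood out, where chance gives about 1 in 20. Donor library 5 also had the highest donor values of Plcg2 and Abi3, the lowest of Lrrk2, Sorl1 and Cd2ap, and a GC slope of 0.3006 on the log2 scale per 10% GC. Without it the log2 difference of Bin1 between donor macrophages and GVHD host microglia was -1.39, against -1.24 with it.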

How the results depend on the processing

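The number of risk genes called stayed within 1.5 times its reported value under every alternative run. Alternatives covered the pseudocount, the filter, 3 rescalings, the variance model, leaving out each library, replicate blocks, the API number and GC content. Over the 7 genes other than Lrrk2, the count for donor macrophages ran from 5 to 6 against GVHD host microglia. Of all tested genes 14.0% to 21.4% were higher there and 16.1% to 27.6% lower. Against TCD host microglia the count ran from 4 to 6 of the 7, where 13.8% to 21.4% of all tested genes were higher and 13.9% to 25.9% lower. The count over all 8 genes was 0 in all alternatives between host groups and in hippocampus. Over all genes the calls were less stable: 69 in hippocampus became 0 without the variance trend, 39 with quantile normalisation and 0 to 123 without 1 library, and 14 between host groups became 0 to 28.

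Signs changed only for differences that had not been called. Leaving out 1 library at a time, Sorl1 in hippocampus ran from -0.078 to 0.23 and Abi3 there from -0.018 to 0.24. Plcg2 between donor macrophages and GVHD host microglia ran from -0.15 to 0.092. Between GVHD and TCD host microglia Plcg2 ran from -0.29 to 0.037, Abi3 from -0.35 to 0.11 and Cd2ap from -0.0097 to 0.59. With the higher API number alone, and without the 3 libraries of GC slope above 0.25, Plcg2, Abi3 and Cd2ap in that comparison were 0.085, 0.17 and -0.11. The cause was not tested.

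With the title number as a replicate block, 0 risk genes were called in hippocampus and 0 between host groups. Of the 7 genes other than Lrrk2, 6 were called in donor macrophages against GVHD host and 5 against TCD host microglia. Of all tested genes 18.1% were higher and 16.9% lower in the first of these, and 18.0% and 16.2% in the second. Title numbers did not pair the hippocampus libraries, whose deviations correlated at -0.163, -0.0403 and -0.183, nor donor with GVHD host libraries (0.394, 0.170, -0.0216 and 0.0159). For donor with TCD host libraries the correlations given above fell once the API number was removed. The fall of the first of them is built into that step. The title block over these 2 groups alone, an alternative added later, called 5 of the 7 genes other than Lrrk2 and changed no call. There 18.0% of all tested genes were higher and 16.5% lower. All-gene calls with the title block over all libraries were 16 in hippocampus and 2 between host groups. With the description number as a block over all 13 libraries, 5 of the 7 genes other than Lrrk2 were called against GVHD host and 4 against TCD host microglia. Of all tested genes 15.6% were higher and 16.1% lower in the first of these, and 13.8% and 13.9% in the second. Plcg2 was 0.080 against GVHD host microglia. Abi3 lost its call at -0.60 (limma adjusted p = 0.0878) against GVHD host and at -0.78 (limma adjusted p = 0.0640) against TCD host microglia. With that block over donor and GVHD host libraries alone, an alternative added after the pairing was checked, 6 of the 7 were called. There 19.3% of all tested genes were higher and 17.1% lower, and Plcg2 was 0.12.

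Depth limits Lrrk2 in host microglia, which rests on 0 to 7 estimated reads a library.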
